A study of Mus musculus with 6 samples.

Results

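Aqp9 and 5 other genes of triglyceride handling were followed in CD8 T cells sorted with and without Eomes from treated tumours: Aqp9, Gpam, Dgat1, Dgat2, Lipa and Cpt1a, out of 18193 genes with a single symbol on the array. They were chosen by name and cover 14 probe sets of 45037, where a probe set is a group of short oligonucleotides read together as 1 value. Of the 14, 6 carry a suffix (_a_at, _s_at or _x_at) for probes that can match more than 1 transcript or gene. The choice was made with the Aqp9 difference between Eomes+ and Eomes- cells on these same arrays already known, so the differences of all 6 genes are given as a description and no test is attached to them.

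Memory CD8 T cells are known to burn fatty acids in mitochondria while drawing them from triglyceride that they make themselves. Glycerol enters through the channel aquaporin 9, is joined to fatty acids in the endoplasmic reticulum by acyltransferases, and the stored triglyceride is later cut in lysosomes to release fatty acids that the carnitine shuttle carries into mitochondria. Interleukin 7 is known to raise Aqp9 in memory CD8 T cells. Eomes, a transcription factor of the T-box family, takes part in both the effector and the memory fate of CD8 T cells.

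The cells came from MCA-205, a mouse fibrosarcoma line, grown as tumours in male C57BL/6 mice carrying an Eomes-GFP reporter. Every mouse, in both groups, had received 2 antibodies, aOX40 against a costimulatory receptor (250 ug, days 12 and 16) and aCTLA-4 against an inhibitory receptor (200 ug, day 12, day 14 and day 16), starting at a tumour area of 50 to 80 mm2, and tumours were taken on day 19. GFP-positive (Eomes+) and GFP-negative (Eomes-) CD8 T cells were put on 3 arrays each, so both groups come from treated tumours, and mice without the antibodies were not analysed here. The arrays stem from 3 independent experiments, but no label links an array to a mouse or an experiment, so any p-value measures only the spread between these samples, which may be partly technical.

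All values are log2 signals, on which a difference of 1 is a doubling, and the median signal of the 6 arrays lay between 6.35 and 6.42. Eomes itself was higher on every Eomes+ array, at 10.38, 9.86 and 8.38 (arrays 1, 2 and 3) against 6.85, 6.89 and 5.42. T cell markers were bright throughout: the mean of 11 such genes was 12.2, 12.0 and 11.0 in Eomes+ and 12.3, 12.3 and 11.1 in Eomes- (arrays 1, 2 and 3 of each), with Cd3e and Cd8a above the 40th percentile of every array. RNA of other cells was present in both groups and differed between arrays: the mean of 14 macrophage genes was 8.56, 10.1 and 11.0 against 8.23, 9.33 and 10.9, and that of 12 tumour and fibroblast genes 9.41, 11.2 and 12.0 against 9.10, 10.4 and 12.2. The mean was higher in Eomes+ for 12 of the 14 macrophage genes and for 11 of the 12 tumour and fibroblast genes, and lower for 9 of the 11 T cell genes. The list means differed by 0.40, 0.35 and -0.20 log2, with exact permutation p = 0.7, 0.8 and 0.5 (two-sided, where 0.1 is the smallest that 3 against 3 can give). The part of this RNA in the differences below was not tested. Of the macrophage genes, 12 of 14 were above the 40th percentile on all 6 arrays, Csf1r and Lyz2 among them and Adgre1 on 5. The mean of 9 dendritic cell genes lay between 7.14 and 7.30 in Eomes+ and between 6.89 and 7.22 in Eomes- (exact permutation p = 0.2). Of these 9 genes, 6 were above that level on all 6 arrays (Zbtb46, H2-Ab1, Itgax, Ccr7, Batf3 and Siglech). Flt3 was above it on 1 array and Xcr1 and Cd209a on 0. The mean was higher in Eomes+ for 6 of the 9 genes, most for Itgax (0.81 log2). It was lower for 3, namely Batf3 (-0.18), Flt3 (-0.16) and Siglech (-0.08). In both groups the arrays numbered 3 had the highest macrophage and the highest tumour and fibroblast means and the lowest T cell mean, whereas the dendritic cell mean was highest on array 2 in Eomes+. The log2 ratio of Gapdh 3' to 5' signal, a sign of RNA quality, was 1.88, 1.77 and 1.55 in Eomes+ against 1.54, 1.07 and 1.11 in Eomes-, higher in every Eomes+ array (exact permutation p = 0.1). Its part in the differences below was not tested.

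Only Aqp9 had a difference of more than 2-fold among the members, and it was seen with 1 of its probe sets. Lower values in Eomes+ cells, with groups that did not overlap, were found for 1 probe set each of Gpam and Dgat1. The kept Lipa and Dgat2 probe sets differed by 0.06 to 0.20 log2, and Cpt1a was lower in the mean with all 3 of its probe sets, by amounts that differed between them. A probe set was kept for analysis when it lay above the 40th percentile of its array (5.70 to 5.72 log2) on at least 3 of the 6 arrays, and 12 of the 14 did. Of those 12, the groups did not overlap for 1 higher and 2 lower in Eomes+ cells. Over all 27766 kept probe sets the shares were 2.92% higher and 5.14% lower, and since the members were picked with this contrast known, nothing is read from their count. After adjustment over all kept probe sets, limma's two-sided test called 0 of 27766 (0%) at 0.05, and 936 (3.37%) had an unadjusted p under 0.05, with 1.11% higher and 2.27% lower in Eomes+.

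**Figure D1:**
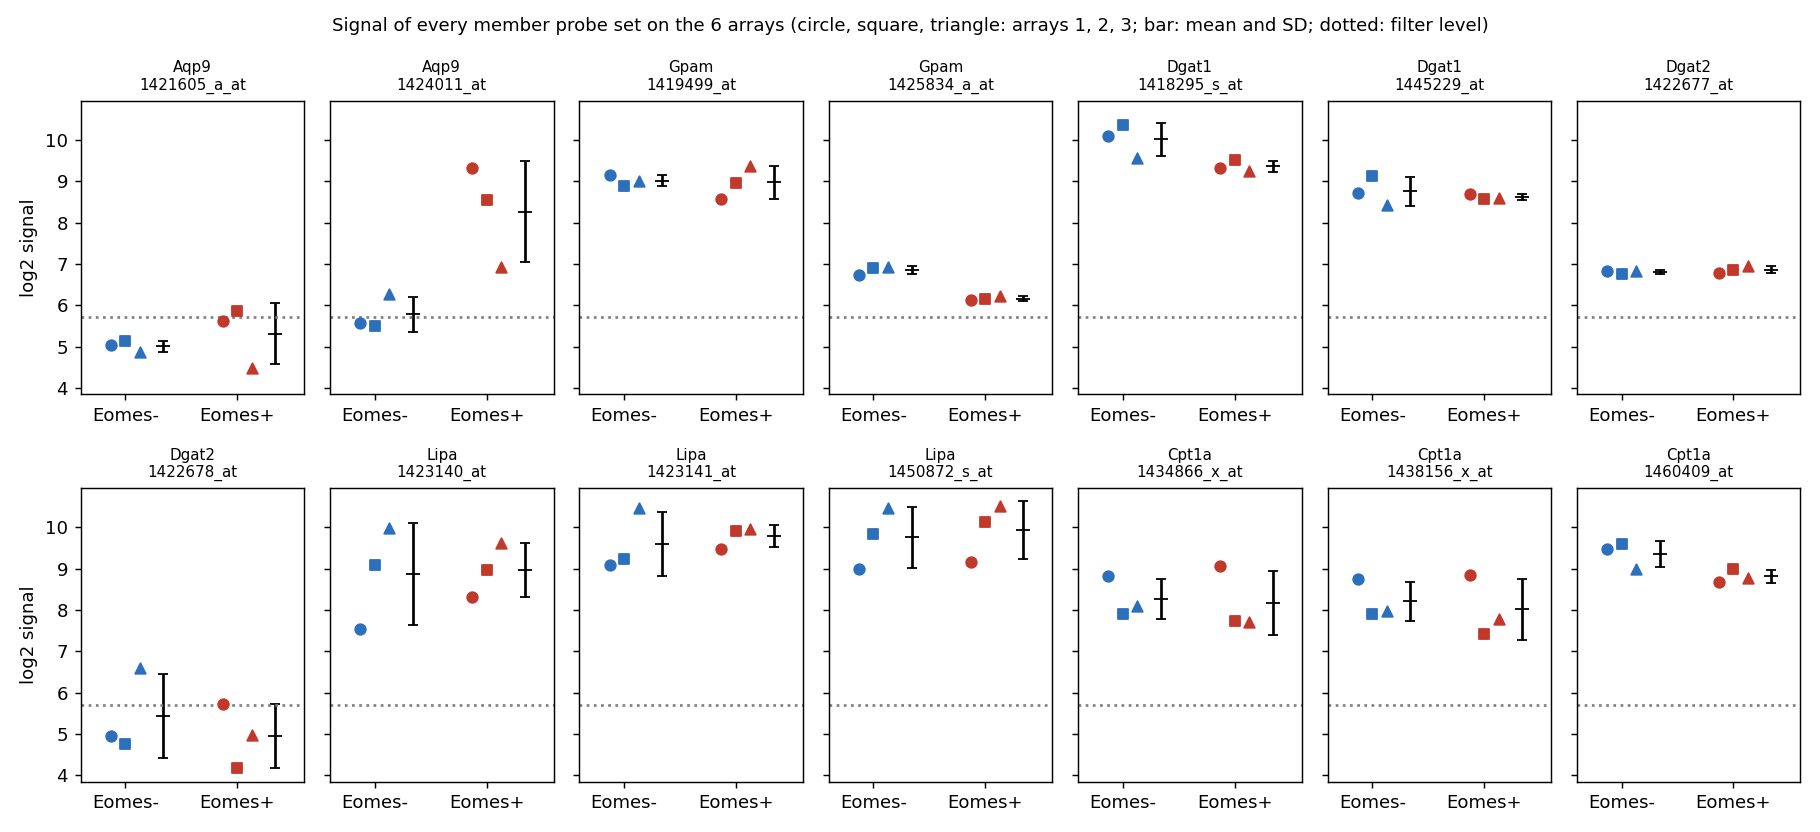
Log2 signal (vertical axis) of each of the 14 member probe sets on the 3 Eomes- arrays (blue) and the 3 Eomes+ arrays (red), with the mean and SD as a black bar and the filter level as a dotted line. Aqp9 1424011_at lies between 6.92 and 9.32 on Eomes+ arrays and between 5.50 and 6.28 on Eomes- arrays, whereas the Lipa probe sets spread widely within each group.

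Aqp9 encodes an aquaglyceroporin, a membrane channel that passes glycerol as well as water. Its brighter probe set, 1424011_at, read 9.32, 8.55 and 6.92 on Eomes+ arrays 1, 2 and 3, against 5.57, 5.50 and 6.28 for Eomes-. The groups did not overlap, but the lowest Eomes+ array (number 3) and the highest Eomes- array (also number 3) were 0.65 apart. The means were 8.26 ± 1.22 in Eomes+ and 5.78 ± 0.43 in Eomes- (SD, n = 3 each), a difference of 2.48 log2. The probe set passed the filter through all 3 Eomes+ arrays and 1 Eomes- array. Eomes- arrays 1 and 2 lay below the filter level, so their signal may be background and the size of the difference is uncertain.

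Leaving out single arrays moved the Aqp9 difference, which was smallest (1.96 log2) when Eomes+ replicate 1 was dropped and largest (3.15) when Eomes+ replicate 3 was dropped. Without both arrays numbered 3, a choice made after seeing the data, it was 3.40 log2. On the Eomes+ arrays Aqp9 had the same order as Eomes and as the T cell markers, but on the Eomes- arrays it was highest on array 3, where both of these were lowest. Aqp9 is also known in neutrophils, so their markers were read: the mean of 10 such genes was 6.08, 6.82 and 7.28 for Eomes+ against 6.13, 6.49 and 7.56 for Eomes- (exact permutation p = 1), with 5 of the 10 above the filter level on every array. Of these 10 genes, 4 had a higher and 6 a lower mean in Eomes+. S100a8, a calcium-binding protein gene abundant in neutrophils, read 6.43, 9.06 and 9.54 against 5.93, 6.68 and 9.92. Its difference of 0.83 log2 was the highest of the list, and that of Il1r2 (-0.82) the lowest. Csf3r, another neutrophil marker, differed by -0.06 log2. Among the Eomes+ arrays, array 1, where Aqp9 was highest, was the lowest for neutrophil and for macrophage markers. Among the Eomes- arrays the reverse was seen, since array 3, where Aqp9 was highest, was also the highest for both lists and for S100a8. The part of these cells in the Aqp9 signal was not tested.

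The other Aqp9 probe set, 1421605_a_at, gave little. It read 5.62, 5.86 and 4.47 in Eomes+ against 5.03, 5.13 and 4.86 in Eomes-, a difference of 0.31 log2 between groups that overlap. Leaving out single arrays moved it from 0.039 log2 (without Eomes+ replicate 2) to 0.73 (without Eomes+ replicate 3). It lay above the 40th percentile on 1 array of 6 and so was not kept. The suffix marks a probe set that matches more than 1 transcript of a gene. With this low signal the probe set neither bears out nor contradicts the other, and the Aqp9 difference rests on 1424011_at alone.

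The 250 bases before the start sites of the Aqp9 and Gpam promoter entries (RefSeq, GRCm38.p6) are shown. Aqp9 was the member of largest difference, and Gpam, with a group difference in 1 of its probe sets, gives a contrast in base composition. Each has 2 promoter entries, and no probe set is tied to either. The annotated Aqp9 gene reaches to base 71167849 of chromosome 9, upstream of both windows, so a start site there would not be covered. Both genes are on the minus strand, the sequences are written 5' to 3' along the gene, and capitals mark CpG dinucleotides.
Aqp9, chr9:71163290-71163539: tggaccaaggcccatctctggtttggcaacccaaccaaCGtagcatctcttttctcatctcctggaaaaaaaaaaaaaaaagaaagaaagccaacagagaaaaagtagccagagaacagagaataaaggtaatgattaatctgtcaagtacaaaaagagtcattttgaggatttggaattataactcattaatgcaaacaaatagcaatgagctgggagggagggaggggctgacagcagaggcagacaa
Aqp9, chr9:71162634-71162883: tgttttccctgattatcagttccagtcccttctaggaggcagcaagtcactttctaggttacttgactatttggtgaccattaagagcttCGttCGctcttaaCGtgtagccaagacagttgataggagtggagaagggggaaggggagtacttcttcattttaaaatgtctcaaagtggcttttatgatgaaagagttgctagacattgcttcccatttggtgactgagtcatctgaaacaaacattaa
Gpam, chr19:55127239-55127488: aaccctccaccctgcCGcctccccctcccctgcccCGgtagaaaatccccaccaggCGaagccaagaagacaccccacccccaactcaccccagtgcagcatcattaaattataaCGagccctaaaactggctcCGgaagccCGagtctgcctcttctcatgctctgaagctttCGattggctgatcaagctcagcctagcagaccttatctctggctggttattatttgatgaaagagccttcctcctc
Gpam, chr19:55099478-55099727: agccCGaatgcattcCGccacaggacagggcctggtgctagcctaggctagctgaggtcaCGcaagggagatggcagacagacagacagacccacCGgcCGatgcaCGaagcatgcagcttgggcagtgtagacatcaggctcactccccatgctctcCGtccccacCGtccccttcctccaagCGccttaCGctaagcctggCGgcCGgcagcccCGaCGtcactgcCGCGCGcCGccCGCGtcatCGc
The Aqp9 sequences had a GC content of 40.4% and 41.6% with 1 and 3 CpG dinucleotides, and the Gpam sequences 54.8% and 66.0% with 7 and 21. The median of all 32851 promoters of the same length was 52.4% GC and 6 CpG. Of the 6 members, 4 (Aqp9, Gpam, Lipa and Cpt1a) had promoter entries. In those 6 sequences, both strands were searched for the T-box half-site AGGTGTG, the PPAR response element (AGGTCA repeated with 1 base between), the E-box CACGTG bound by TFEB, and the sterol element TCACNCCAC bound by SREBP. None of the 4 motifs was found in any of them, while 5.10%, 0.0335%, 6.02% and 1.05% of all promoters hold them in that order. These letters are absent from these windows, which says nothing of the factors elsewhere.

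Gpam encodes the mitochondrial acyltransferase that puts the first fatty acid on glycerol 3-phosphate. Probe set 1425834_a_at read 6.12, 6.15 and 6.22 in Eomes+ against 6.73, 6.89 and 6.92 in Eomes-. The groups did not overlap and the spread within each was small, with means of 6.16 ± 0.05 and 6.85 ± 0.10 (SD, n = 3 each) and a difference of -0.69 log2, or 1.61-fold lower in Eomes+. It stayed between -0.75 and -0.65 log2 when single arrays were dropped. The signals lay not far above the filter level of 5.70 to 5.72, so the size of the difference is uncertain.

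The brighter Gpam probe set, 1419499_at, did not show this. Its values were 8.58, 8.97 and 9.37 in Eomes+ against 9.15, 8.89 and 9.002 in Eomes-, so that the groups overlapped and the difference was -0.04 log2. Its sign turned when Eomes+ replicate 1 (0.16 log2) or Eomes- replicate 1 (0.03) was left out. Over the 6 arrays the Gpam probe sets correlated at only 0.12 (Pearson, n = 6, a description).

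Dgat1 and Dgat2 encode unrelated enzymes that each add the last fatty acid to make triglyceride. Dgat1 probe set 1418295_s_at read 9.33, 9.51 and 9.24 in Eomes+ against 10.10, 10.36 and 9.57 in Eomes-. All Eomes+ arrays lay below all Eomes- arrays, the nearest being Eomes+ array 2 and Eomes- array 3. The means were 9.36 ± 0.14 and 10.01 ± 0.40 (SD, n = 3 each), a difference of -0.65 log2, or 1.57-fold lower in Eomes+, which ranged from -0.87 to -0.47 when single arrays were dropped. Its suffix marks probes that may match transcripts of more than 1 gene.

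The other Dgat1 probe set, 1445229_at, overlapped between groups. It read 8.69, 8.57 and 8.60 on the Eomes+ arrays against 8.72, 9.12 and 8.42, a difference of -0.13 log2 that turned to 0.05 without Eomes- replicate 2. Dgat2 was nearly flat with probe set 1422677_at, at 6.79, 6.86 and 6.95 on the Eomes+ arrays against 6.83, 6.75 and 6.83 (difference 0.06 log2). Its second probe set, 1422678_at, was above the 40th percentile on 2 of 6 arrays and was not kept, with values from 4.17 to 5.73 against 4.75 to 6.60. The groups overlapped with this probe set too.

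Lipa encodes lysosomal acid lipase, which cuts triglyceride and cholesteryl esters delivered to lysosomes and is abundant in macrophages. Probe set 1450872_s_at read 9.17, 10.12 and 10.51 in Eomes+ (arrays 1, 2 and 3) against 8.99, 9.83 and 10.46 in Eomes-. The groups overlapped almost fully and the difference was 0.17 log2, with SDs of 0.69 and 0.74 (n = 3 each). The other probe sets, 1423140_at and 1423141_at, differed by 0.10 and 0.20 log2 and overlapped as well. All 3 differences turned negative without Eomes- replicate 1, at -0.56 log2 (1423140_at), -0.06 (1423141_at) and -0.21 (1450872_s_at). Without Eomes- replicate 3 they were 0.66, 0.64 and 0.52 in the same order. Dropping Eomes+ replicate 3 gave -0.23, 0.11 and -0.12, and dropping Eomes+ replicate 1 gave 0.43, 0.35 and 0.56.

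Probe set 1450872_s_at put the 6 arrays in the same order as the mean of the 14 macrophage genes did, from Eomes- array 1 as the lowest to Eomes+ array 3 as the highest. This likeness was not particular to macrophage genes. The probe set correlated at 0.988 with their mean, at 0.990 with the tumour and fibroblast mean and at 0.947 with the neutrophil mean (Pearson, n = 6, a description). In bulk RNA of sorted cells, more cells of another type and more RNA per cell cannot be told apart, and the share of the Lipa signal that T cells contributed was not measured.

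**Figure D2:**
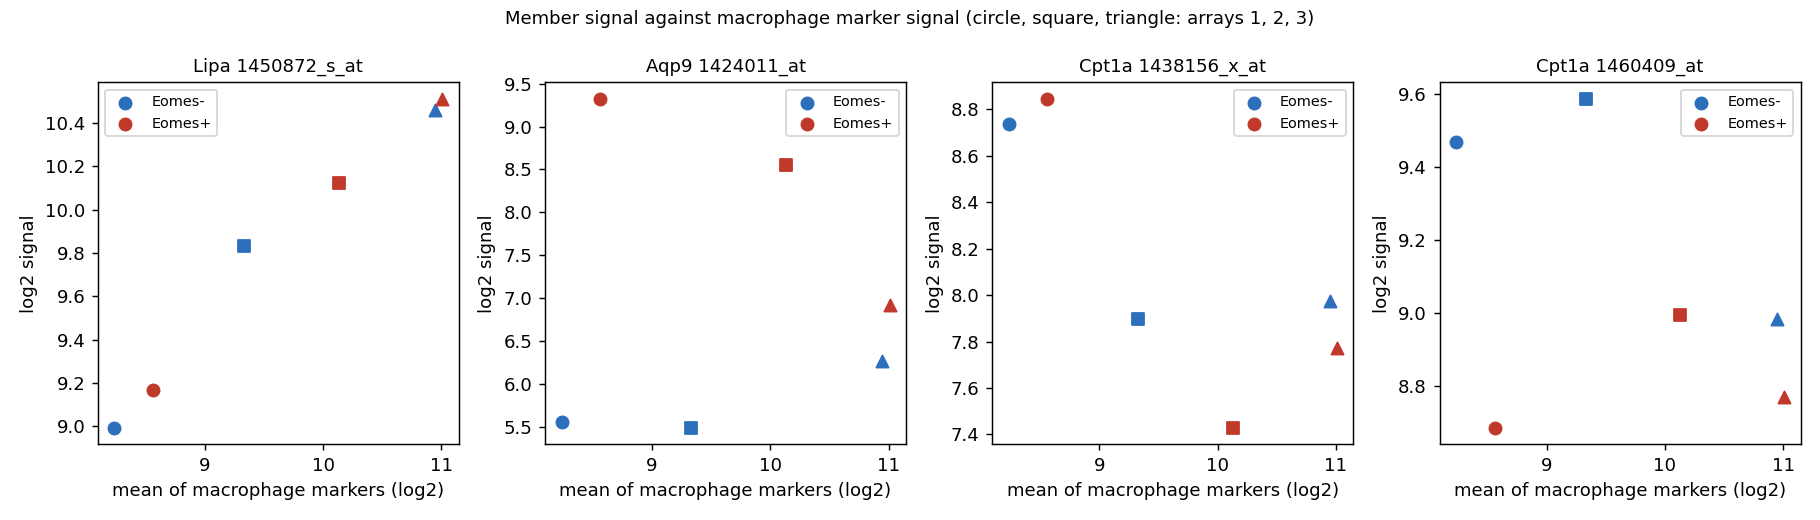
Log2 signal of 4 member probe sets (vertical axes, each with its own range) against the mean log2 signal of 14 macrophage marker genes (horizontal axis) for the 3 Eomes- (blue) and 3 Eomes+ (red) arrays. Lipa goes up with the macrophage mean over all 6 arrays, Aqp9 separates the groups at both ends of the axis, and Cpt1a 1438156_x_at is highest on the arrays numbered 1, where the macrophage mean is lowest.

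Cpt1a encodes the outer-membrane carnitine palmitoyltransferase, the controlled entry step of long-chain fatty acids into mitochondria. Probe set 1460409_at read 8.68, 8.99 and 8.77 in Eomes+ against 9.47, 9.59 and 8.98 in Eomes-. The groups touched, since Eomes+ array 2 lay 0.01 log2 above Eomes- array 3, and otherwise Eomes+ was lower. The means were 8.82 ± 0.16 and 9.35 ± 0.32 (SD, n = 3 each), a difference of -0.53 log2, or 1.45-fold lower in Eomes+, which ranged from -0.71 to -0.41 when single arrays were dropped.

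The remaining Cpt1a probe sets behaved differently. 1434866_x_at read 9.07, 7.73 and 7.71 on the Eomes+ arrays against 8.82, 7.91 and 8.09, and 1438156_x_at read 8.85, 7.43 and 7.77 against 8.74, 7.90 and 7.97. Both were highest on the arrays numbered 1 of either group and differed between the groups by -0.11 and -0.19 log2. These values depended on single arrays: without Eomes+ replicate 1 they were -0.56 and -0.60, about the size for 1460409_at. Both turned positive with Eomes- replicate 1 left out (0.17 and 0.08 log2) or with Eomes+ replicate 2 left out (0.12 and 0.11). For 1434866_x_at this also held without Eomes+ replicate 3 (0.12) or without both arrays numbered 3 (0.03). They correlated at 0.97 with each other over the 6 arrays and at -0.04 and 0.02 with 1460409_at. The x in their names marks probes open to cross-hybridisation.

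**Figure D3:**
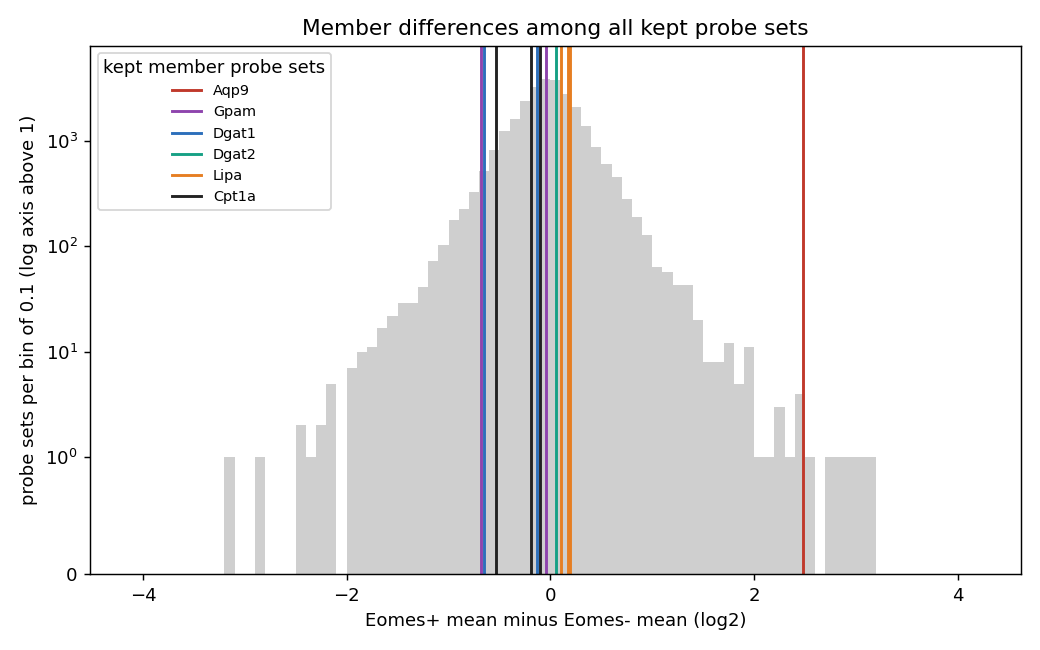
Number of kept probe sets (vertical axis, logarithmic above 1) by their Eomes+ minus Eomes- difference in log2 (horizontal axis), with a coloured line at each of the 12 kept member probe sets. The Aqp9 line lies at 2.48, and the lines of the other 5 genes lie between -0.69 and 0.20, close to or inside the range of -0.64 to 0.59 that holds the middle 90% of probe sets.

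Other genes of the pathway, from 6 lists without the members, gave no call. Of 89 listed genes 69 were tested, each by its brightest kept probe set. After adjustment over all kept probe sets, limma called 0 of 69. An unadjusted p under 0.05 was found for 4 (5.80%, against 3.37% of all kept probe sets). Eomes itself, by which the cells were sorted, differed by 3.15 log2 and was not called either (limma unadjusted p = 0.00175). A count of 0 called here and below therefore does not show that the genes are unchanged. The groups did not overlap for 6 of the 69 (8.70%, against 8.06% overall), 3 higher and 3 lower in Eomes+. The lists were chosen with earlier results of these data known, so nothing is read from these shares. Without Eomes- replicate 2 the count of 4 was 1, and the 936 over all kept probe sets was 480, while without Eomes- replicate 3 the latter was 1599. The median difference was -0.03 log2, beside -0.02 over all kept probe sets.

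Of the glycerol genes 5 of 8 were tested, 3 with a higher and 2 with a lower mean, with a median of 0.09 log2 and 0 called. Gpd2, the mitochondrial glycerol 3-phosphate dehydrogenase, read 10.49, 10.92 and 10.66 on the Eomes+ arrays against 11.57, 11.61 and 11.06, a difference of -0.72 log2 (SE 0.21, limma adjusted p = 1.00) between groups that did not overlap, although 1 of its 3 other kept probe sets differed in the opposite direction. Aqp11, an aquaporin of the endoplasmic reticulum, differed by -0.98 (SE 0.42) and was above the filter level on 1 of 3 Eomes+ arrays. Aqp3, the other aquaglyceroporin measured above the filter, differed by 0.09 log2 (SE 0.23), with 6.44, 6.26 and 6.24 against 6.31, 6.33 and 6.03. The glycerol 3-phosphate dehydrogenase genes Gpd1l and Gpd1 differed by 0.33 and 0.11 log2, the other kept probe set of Gpd1l in the opposite direction. Aqp7 was on no array above the filter level, and Gk, the glycerol kinase gene, was not analysed here.

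Triglyceride synthesis genes were tested for 14 of 17, with 5 higher and 9 lower means, a median of -0.10 log2 and 0 called. Lpin1, a phosphatidate phosphatase, differed most, at 8.86, 9.34 and 7.92 against 8.10, 8.08 and 7.02 (0.97 log2, SE 0.47). Within each group it was lowest on array 3, and the groups overlapped. Its relative Lpin2 differed by -0.48 log2, and the acyltransferases Agpat1 and Agpat4 by -0.48 and -0.23. Plin2, a coat protein of lipid droplets, differed by 0.11 log2 (SE 0.60).

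Genes of lipolysis and lysosomal lipid export were tested for 10 of 12, with 5 higher and 5 lower means, a median of -0.02 log2 and 0 called. G0s2, an inhibitor of the cytosolic triglyceride lipase, read 6.32, 6.26 and 6.24 on the Eomes+ arrays against 5.45, 5.27 and 5.77, a difference of 0.77 log2 (SE 0.23, limma adjusted p = 1.00) with groups that did not overlap. It was above the filter level on 1 of 3 Eomes- arrays, so its size is uncertain. Npc1, the lysosomal cholesterol exporter, read 10.00, 9.95 and 10.19 against 9.33, 9.50 and 9.76, a difference of 0.52 log2 (SE 0.20, limma adjusted p = 1.00) with groups that did not overlap, and its partner Npc2 differed by 0.19. Pnpla2, the cytosolic triglyceride lipase, and its activator Abhd5 differed by -0.16 and -0.64 log2.

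Fatty acid uptake and activation genes were tested for 9 of 16, with 6 higher and 3 lower means, a median of 0.11 log2 and 0 called. The median ran from -0.24 log2 (without Eomes+ replicate 3) to 0.41 (without Eomes+ replicate 1) when single arrays were dropped. Slc27a1, a fatty acid transporter, was -0.65 log2 (SE 0.33) with groups that did not overlap, and the binding protein gene Fabp5 0.36 (SE 0.18). The acyl-CoA synthetase genes Acsl4 and Acsl3 differed by -0.56 and 0.85 log2, and of the 2 other kept Acsl4 probe sets 1 differed in the opposite direction. Cd36, the fatty acid translocase, was above the filter level on at most 1 array.

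Fatty acid oxidation genes were tested for 21 of 22, with 7 higher and 14 lower means, a median of -0.09 log2 and 0 called. Hadha, the trifunctional protein subunit, differed by -0.51 log2 (SE 0.22), the electron transfer flavoprotein gene Etfb by -0.46 (SE 0.21) with groups that did not overlap, and the long-chain dehydrogenase gene Acadl by -0.46 (SE 0.28). Hadh differed by 0.26 log2, and Cpt2, which acts after Cpt1a in the carnitine shuttle, by 0.33 (SE 0.37). None passed adjustment, and the largest differences in the list were about the size of that of Cpt1a 1460409_at.

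Regulators were tested for 10 of 14, with 6 higher and 4 lower means, a median of 0.09 log2 and 0 called. Esrra, a nuclear receptor for mitochondrial genes, read 7.76, 7.70 and 7.90 against 7.38, 7.21 and 6.98, a difference of 0.60 log2 (SE 0.24, limma adjusted p = 1.00) with groups that did not overlap, although its other kept probe set differed in the opposite direction. Foxo1, a transcription factor of memory T cells, differed by 0.56 log2 (SE 0.40; 1 of its 3 other kept probe sets in the opposite direction), the coactivator gene Ppargc1b by 0.37 and the nuclear receptor gene Pparg by -0.42. Ppara was above the filter level on at most 1 array and Ppargc1a on 0. Il7r, the interleukin 7 receptor chain, read 11.54, 11.00 and 9.97 on the Eomes+ arrays against 11.69, 11.66 and 10.25, a difference of -0.36 log2 (SE 0.53) between overlapping groups. The cytokine gene Il15 differed by -0.34 log2 (SE 1.03).

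**Figure D4:**
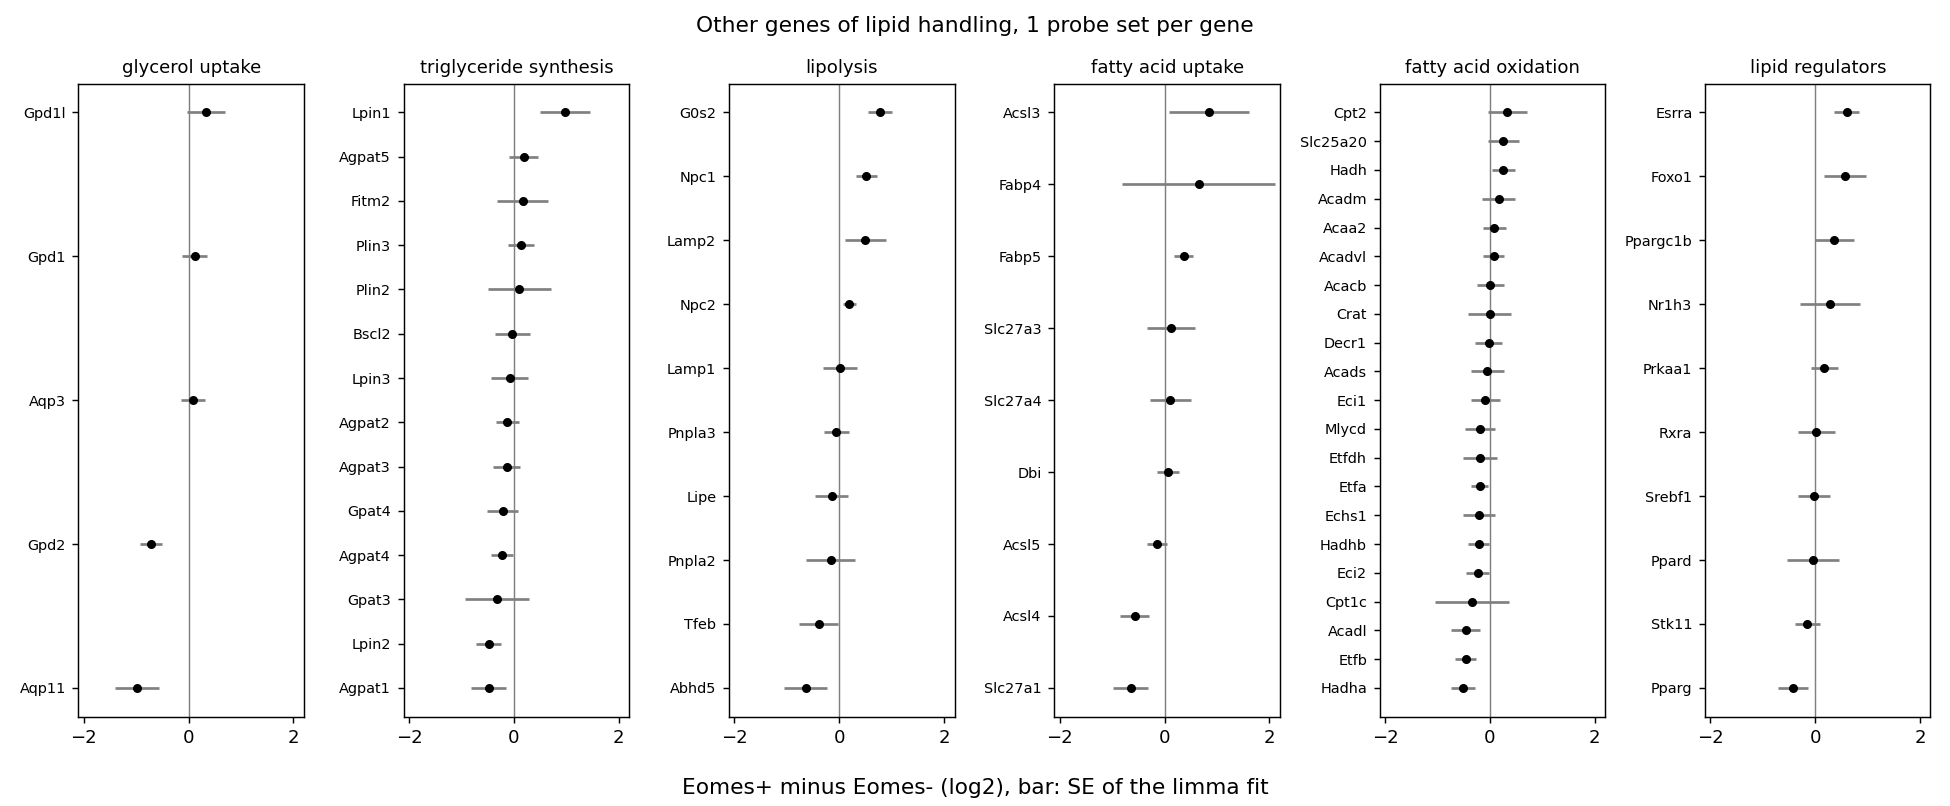
Eomes+ minus Eomes- difference in log2 (horizontal axis, bar: SE of the limma fit) of the 69 tested pathway genes in 6 lists, 1 probe set per gene. Differences run from -0.98 (Aqp11) to 0.97 (Lpin1), on both sides of 0 in every list, and 0 genes passed adjustment.

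Genes with the most similar pattern were found by Pearson correlation over the 6 arrays among 12565 other genes, as a description in which group, T cell RNA and RNA of other cells all enter. The genes closest to Aqp9 1424011_at were Wdr81 (0.996), S1pr1 (0.994), Eif5a (0.991), Patj (0.985) and Dolk (0.981). Between the groups they differed by 0.63, 1.17, 0.25, 0.94 and 0.32 log2 in that order. As they were picked for their likeness to Aqp9 on these same arrays, higher means in Eomes+ follow from the choice. S1pr1 is the sphingosine 1-phosphate receptor that guides T cells out of tissue. Closest to Lipa 1450872_s_at were Msr1 (0.999), a macrophage scavenger receptor gene, the collagen chaperone gene Serpinh1 (0.999) and the cytokine receptor gene Csf2rb (0.999). Closest to Cpt1a 1460409_at were Sec14l4 (0.989), Osbpl3 (0.988) and Gpd2 (0.987), and closest to Dgat1 1418295_s_at Arih1 (0.994), Uap1 (0.994) and Sfswap (0.987). For Gpam 1419499_at they were Sin3a (0.990), B4gat1 (0.985) and Lztfl1 (0.978), and for Dgat2 1422677_at, which spans a narrow range, Hk3 (0.998), Plekhg6 (0.993) and Xrcc1 (0.992). With 6 arrays and this many genes, high values are reached by some genes for any pattern.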

How the data were processed

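RNA extracted with Trizol was labelled with biotin, per the labels' protocols, and the authors deposited log2 values for 45101 probe sets on 6 arrays. Per the submitters' processing notes, the tools were Transcriptome Analysis Console and MAS5, with no role or version. How probes were summarised is thus not given in the sources. The log2 scale was read from the values (1.68 to 14.95). The 64 control probe sets entered no fit. Of the others, the platform annotation gives 1 symbol for 34945, several for 932 and none for 9160. Symbols were updated through RefSeq (GRCm38.p6), which held 34741. Groups were compared per probe set with limma 3.58.1 in R 4.3.3 (eBayes with trend, Benjamini-Hochberg over 27766 kept probe sets), tested on simulated data. The number of arrays limits the precision.

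Members, gene lists and motifs were chosen with earlier results of these data known. Named genes were all members, the 4 genes of smallest p per list, a set of fixed genes, and the most correlated genes. S100a8 and Csf3r were markers fixed with the cell type lists. Alternatives were other normalizations and filters, array weights, a replicate block, other probe set choices, and arrays left out.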

Additional observations from a re-analysis of the deposited data

How the results depend on the processing

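Replicate numbers shared by the groups did not meet the rule for pairing: arrays of number 1, 2 and 3 deviated together with correlations of 0.60, 0.099 and 0.63, and Eomes- replicate 2 was closer to Eomes+ replicate 1 (0.30), so not every array was closest to its own number. With the replicate block limma called 0 probe sets, 2748 had an unadjusted p under 0.05 against 936 without it, and 15 pathway genes against 4. Array weights gave 74 called probe sets, 19 higher and 55 lower. Among them were 2 Gpd2 probe sets, neither its brightest, and Eomes (2.92 log2, limma adjusted p = 0.0446, against 0.0708 with the replicate block). Array weights also gave 6270 probe sets at an unadjusted p under 0.05, 19 pathway genes at that level, and -0.46 log2 for Dgat1 1445229_at. No filter gave 1462 of 45037 probe sets at an unadjusted p under 0.05 and 3639 with groups that do not overlap. The filter at the 60th percentile gave 562 of 18567 at that p and 2 pathway genes. Its list medians were -0.20 log2 (glycerol uptake) and 0.11 (lipolysis), both turned in sign. The brightest probe set per gene gave 409 of 12571. These totals differ from the 27766 of the main fit, so the counts alone do not show a change in share. Without both arrays numbered 3 (chosen after seeing the data) 1806 probe sets had an unadjusted p under 0.05 and 9601 had groups that do not overlap. That setting gave 8 pathway genes at that p, a median of 0.24 log2 for regulators and 3.40 log2 for Aqp9 1424011_at. Here, and with single arrays left out, fewer arrays alone raise the count of groups that do not overlap.

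With each array left out in turn, 480 (without Eomes- replicate 2) to 1599 (without Eomes- replicate 3) probe sets had an unadjusted p under 0.05 and 3399 to 6302 had groups that do not overlap (2238 with all arrays). Pathway genes at that p numbered 1 to 6, without the same 2 arrays, and the regulator median lay between 0.068 and 0.31 log2. Limma called 0 probe sets and 0 pathway genes in each of these. Where no construction of the alternative shows it, the cause was not tested. Over all alternatives, 17 of 154 member values and 16 of 84 list medians turned sign. These totals include the replicate block, which could turn no sign. With each number once in each group, it leaves every difference as it was. Medians ranged from -0.05 to 0.13 log2 (glycerol), -0.26 to -0.01 (triglyceride synthesis), -0.05 to 0.08 (lipolysis), -0.24 to 0.41 (fatty acid uptake) and -0.19 to 0.01 (oxidation) with single arrays left out. Low signal limits the precision for Aqp9 in Eomes- cells, Dgat2 and Gpam 1425834_a_at.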

Other observations

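Several lipid genes differed more between arrays of the same group than between the groups. Plin2 read 9.30, 10.20 and 11.00 in Eomes+ (arrays 1, 2 and 3) against 9.20, 9.86 and 11.11 in Eomes-. Acsl3 read 6.84, 7.01 and 8.45 against 5.54, 6.06 and 8.15. Fabp4 read 4.79, 9.40 and 10.38 against 6.36, 7.30 and 8.96. Plin2, Acsl3 and Fabp4 were highest on the arrays numbered 3 of either group, which also had the highest means of macrophage and of tumour and fibroblast genes. Other genes were lowest on those arrays, such as Foxo1 (11.29, 11.07 and 9.97 against 10.51, 10.44 and 9.70) and Pnpla2 (9.71, 9.36 and 8.01 against 9.40, 9.38 and 8.79). The part of RNA of other cells in these values was not tested.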
